A study of Mus musculus with 12 samples.

Results

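Mme, Aadac, Asic5, B3galnt1 and Ssr2 are 5 genes of mouse chromosome 3 that lie on either side of Tiparp, the gene inactivated in this study. They were chosen by the difference in their liver RNA level between Tiparp knockout and wild-type mice, so the genotype differences given here for them are descriptions without a test. Each is represented by 1 probe set of the array, and they are 5 of 14860 genes measured with an unambiguous symbol. "Flanking" holds in gene order only: among 707 measured chromosome 3 genes, Mme stands 6 genes before Tiparp and Aadac 13 before it, whereas B3galnt1 stands 17, Asic5 38 and Ssr2 98 genes after it.

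Liver RNA of 12 mice, all 8 weeks old and of a mixed C57BL/6;129Sv background, was measured with 1 Affymetrix Mouse Exon 1.0 ST array per mouse. The 4 groups of 3 arrays were wild-type (Tiparp +/+) mice given corn oil, wild-type mice given TCDD, Tiparp -/- mice given corn oil and Tiparp -/- mice given TCDD, with TCDD (2,3,7,8-tetrachlorodibenzo-p-dioxin) injected intraperitoneally at 30 µg/kg. The labels call the arrays of a group biological replicates, and 3 arrays a group limit how precisely any value is known. The sources used here do not give sex, the time after dosing or whether the mice were littermates. In a knockout kept on a mixed background, DNA linked to the targeted allele can come from a different strain than the same stretch in wild-type controls. For genes near Tiparp, loss of Tiparp, linked strain variants and an effect of such variants on probe binding cannot be told apart in this design.

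Tiparp encodes a mono-ADP-ribosyltransferase whose gene is switched on by the aryl hydrocarbon receptor (AhR), the receptor for TCDD, and which in turn represses that receptor. The flanking genes have no shared pathway. Mme encodes neprilysin, a cell surface metallopeptidase that cleaves small peptides, and Aadac encodes arylacetamide deacetylase, an esterase of the hepatocyte endoplasmic reticulum that hydrolyses drugs and lipid esters. Asic5 encodes an ion channel of the acid-sensing family, described in bile duct cells and activated by bile acids in rodents. B3galnt1 encodes the glycosyltransferase that makes the glycolipid globoside, and Ssr2 encodes the beta subunit of the translocon-associated protein (TRAP) complex, which assists the entry of new proteins into the endoplasmic reticulum.

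The promoters of Tiparp and of the genes on which the results turn are shown because TCDD acts through AhR, which binds the core motif GCGTG. Each window runs from 250 bases before to 50 bases after an annotated start, 5′ to 3′ on the gene's own strand, from RefSeq for GRCm38.p6; capitals mark GCGTG or its reverse complement CACGC. Of the 5 flanking genes, 4 were matched in the promoter table (all but Ssr2), and Mme had 3 starts there, of which the last is printed.
Tiparp, chr3:65528197-65528496, plus strand: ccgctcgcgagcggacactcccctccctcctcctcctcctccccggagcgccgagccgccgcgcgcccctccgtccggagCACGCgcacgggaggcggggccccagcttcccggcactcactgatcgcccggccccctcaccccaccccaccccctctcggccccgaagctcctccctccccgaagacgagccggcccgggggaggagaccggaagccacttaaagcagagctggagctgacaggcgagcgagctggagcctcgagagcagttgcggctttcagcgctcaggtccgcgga
Mme, chr3:63295845-63296144, plus strand: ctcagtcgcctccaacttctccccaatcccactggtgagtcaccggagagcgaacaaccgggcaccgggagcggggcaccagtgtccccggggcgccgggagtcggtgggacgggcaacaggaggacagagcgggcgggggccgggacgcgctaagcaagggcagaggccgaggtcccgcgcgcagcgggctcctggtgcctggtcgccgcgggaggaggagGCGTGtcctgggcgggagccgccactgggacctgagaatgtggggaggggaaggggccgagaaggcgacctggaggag
Asic5, chr3:81996672-81996971, plus strand: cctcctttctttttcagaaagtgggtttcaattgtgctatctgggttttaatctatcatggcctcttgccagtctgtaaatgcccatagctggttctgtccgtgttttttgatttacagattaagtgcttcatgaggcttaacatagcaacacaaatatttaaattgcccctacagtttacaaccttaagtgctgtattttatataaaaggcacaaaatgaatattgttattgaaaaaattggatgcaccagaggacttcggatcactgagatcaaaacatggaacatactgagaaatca
B3galnt1, chr3:69598911-69599210, minus strand: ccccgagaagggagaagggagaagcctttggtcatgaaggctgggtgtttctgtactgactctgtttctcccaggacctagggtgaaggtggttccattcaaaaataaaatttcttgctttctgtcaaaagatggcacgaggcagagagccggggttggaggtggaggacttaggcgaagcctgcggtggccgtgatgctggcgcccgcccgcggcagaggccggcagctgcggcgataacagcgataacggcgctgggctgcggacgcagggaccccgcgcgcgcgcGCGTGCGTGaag
The Tiparp window and the printed Mme window held 1 match each. The B3galnt1 window held 2, which share 1 base. The windows of Asic5 and Aadac and the other Mme windows held none. Of 32851 promoter windows of this length, 32.4% held at least 1 match and 11.1% held at least 2, so these counts set no member apart, and a match is not a binding site. The share of G and C was 36.3% in the Asic5 window, 37.3% in that of Aadac, 61.3% in that of B3galnt1 and 72.3% in the printed Mme window, against a median of 52.7%.

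Values are log2 levels as the authors deposited them, 1 per probe set and array, so a difference of 1 is a doubling. Array medians lay between 6.91 and 7.00, and arrays of a group correlated at Pearson's r 0.979 to 0.989 across probe sets (not independent of each other). Knockout corn oil arrays stood apart on the first principal component (23.5% of the variance), with scores of 45.8, 36.7 and 17.2 for replicates 1, 2 and 3, against -30.5 to 7.99 on the other arrays. Tiparp itself was at 7.42, 7.41 and 7.33 in wild-type corn oil liver and at 7.10, 6.20 and 5.58 in knockout corn oil liver. With TCDD it was at 9.91, 10.82 and 10.84 in the wild type and at 6.82, 6.70 and 6.91 in the knockout. The genotypes did not overlap under either treatment, in the direction the labels give. In liver, 7 of 10 listed hepatocyte markers were measured, and their mean level per array lay between 12.79 and 13.18 with none called in any genotype comparison.

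Mme was the member with the largest genotype difference under both treatments. In wild-type liver its log2 level was 9.58, 8.68 and 7.65 with corn oil and 8.70, 7.80 and 8.43 with TCDD. In knockout liver it was 5.14, 5.51 and 5.24 with corn oil and 5.10, 5.38 and 5.07 with TCDD. Every knockout array was below every wild-type array, and the nearest pair across all 12 arrays was 2.14 apart. The wild-type corn oil mice spread widely, while the knockout arrays of both treatments lay within a narrow band. The group means were 8.64 ± 0.97 and 8.31 ± 0.46 in the wild type with corn oil and TCDD, and 5.30 ± 0.19 and 5.18 ± 0.17 in the knockout (SD, n = 3). Within each genotype the treatments did not differ beyond this spread. The knockout minus wild-type difference was -3.34 ± 0.40 under corn oil (SE; a 10.1-fold lower level) and -3.13 ± 0.40 under TCDD (8.73-fold lower). No detection calls were used here, so the low knockout values are not separated from background.

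Aadac, the other member that was lower in the knockout, differed by much less and had a small spread. Its log2 level in wild-type liver was 12.58, 12.58 and 12.39 with corn oil and 12.40, 12.41 and 12.40 with TCDD. In knockout liver it was 11.66, 11.84 and 11.87 with corn oil and 12.04, 11.71 and 11.72 with TCDD. No knockout array reached a wild-type array, although the highest knockout TCDD array came within 0.35 of the lowest wild-type array. The difference was -0.73 ± 0.10 under corn oil (SE; 1.65-fold lower) and -0.58 ± 0.10 under TCDD (1.49-fold lower). The group means followed the order wild-type corn oil, wild-type TCDD, knockout TCDD and knockout corn oil, at 12.52 ± 0.11, 12.40 ± 0.01, 11.82 ± 0.19 and 11.79 ± 0.11 (SD, n = 3), and only across the middle step did the arrays of neighbouring groups not overlap.

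Asic5 was higher in the knockout and was the member whose wild-type level stood higher with TCDD on every array. Its log2 level in wild-type liver was 6.39, 6.83 and 6.30 with corn oil and 7.32, 7.43 and 8.58 with TCDD. In knockout liver it was 8.80, 9.34 and 8.91 with corn oil and 8.89, 9.68 and 9.51 with TCDD. The genotypes were separated by 1.97 under corn oil, but by only 0.31 under TCDD, because wild-type TCDD replicate 3 came close to the lowest knockout array. The difference was 2.51 ± 0.33 under corn oil (SE; 5.70-fold higher) and 1.58 ± 0.33 under TCDD (3.00-fold higher). In order of level, the groups were wild-type corn oil (6.51 ± 0.28), wild-type TCDD (7.78 ± 0.70), knockout corn oil (9.02 ± 0.29) and knockout TCDD (9.36 ± 0.42; SD, n = 3), and the last pair overlapped.

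With corn oil B3galnt1 and Ssr2 were higher in the knockout, and with TCDD the genotypes overlapped. B3galnt1 was at 7.09, 7.23 and 7.04 in wild-type corn oil liver and at 7.60, 7.91 and 8.03 in knockout corn oil liver. With TCDD it was at 7.02, 6.95 and 7.30 in the wild type and at 7.56, 7.41 and 7.19 in the knockout, where the lowest knockout array was below the highest wild-type array. Its difference was 0.73 ± 0.14 under corn oil (SE; 1.65-fold higher) and 0.30 ± 0.14 under TCDD (1.23-fold higher). The knockout corn oil mean of 7.85 ± 0.22 stood above the other 3 group means, which ran from 7.09 to 7.39.

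Ssr2 was at 11.42, 11.18 and 11.49 in wild-type corn oil liver and at 11.93, 12.10 and 11.88 in knockout corn oil liver. With TCDD it was at 11.27, 11.68 and 11.68 in the wild type and at 11.59, 11.62 and 11.67 in the knockout, so that the knockout values lay inside the wild-type range. Its difference was 0.61 ± 0.13 under corn oil (SE; 1.52-fold higher) and 0.08 ± 0.13 under TCDD. The level of Ssr2 in knockout corn oil liver (11.97 ± 0.12; SD, n = 3) was again the one that stood above the other groups, whose means were 11.36 to 11.63. The plot of member levels by array shows these patterns side by side.

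**Figure D1:**
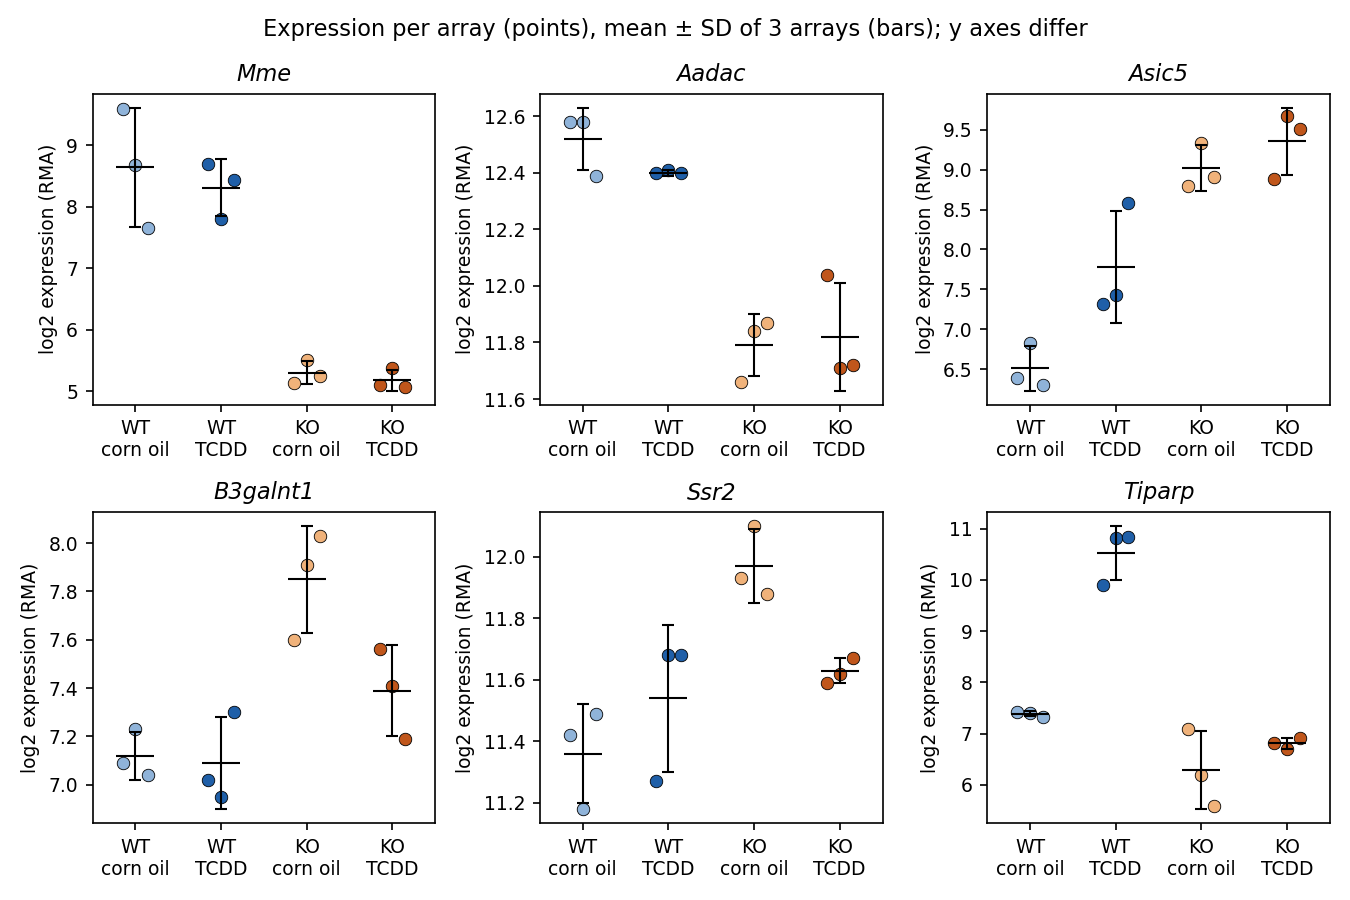
RMA log2 level (y axis, scaled for each panel) of Tiparp and the 5 flanking genes on each of the 12 arrays, by genotype and treatment (x axis); points are arrays and bars are the mean ± SD of 3. Mme and Aadac are lower on every knockout array, Asic5 is higher on every knockout array, and B3galnt1 and Ssr2 are clear of the wild type only with corn oil.

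Under corn oil 5 of 5 members did not overlap between the genotypes, where 21.8% of all probe sets did not. Under TCDD the count was 3 of 5 (18.3% of probe sets), and over both treatments together, 6 arrays against 6, it was also 3 of 5 (1.35% of probe sets). The choice of members used these differences, so nothing is read from these counts. It appears to rest on the corn oil comparison: of 200 genes within 100 places of Tiparp, these 5 were the ones called there (limma, adjusted p below 0.05; 1.96% of all probe sets were called). The members were chosen by genotype, so calls for genotype are not read as tests of them. Among the markers of other liver cells, 2 lists stood higher on every knockout corn oil array than on every wild-type corn oil array. The mean of 7 neutrophil genes was 6.53 to 6.72 per array against 5.98 to 6.25, with 1 of 7 called, Retnlg. The mean of 9 liver endothelial genes was 9.65 to 9.78 against 9.37 to 9.58, with none called. The 9 measured Kupffer cell markers lay between 8.97 and 9.31 against 8.50 and 9.14, with Marco called. The 6 measured bile duct markers, of 10 listed, lay between 6.66 and 6.72 against 6.60 and 6.79, with none called. The part of these cells in the members' differences was not tested, and in whole liver fewer cells of a type and less RNA per cell cannot be told apart.

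Whether the genotype difference depended on treatment was tested as the interaction, the difference under TCDD minus that under corn oil. None of the 5 members was called (limma, adjusted p below 0.05; 0.159% of all probe sets were called). The interaction is not independent of a choice made under corn oil, since a difference picked for its size in one condition tends to be smaller in another. For Mme it was 0.21 with a 95% interval of -1.05 to 1.48 (limma adjusted p = 0.909), and for Aadac 0.15, from -0.18 to 0.47 (limma adjusted p = 0.711). Both intervals held 0, and that of Mme was wide enough to include more than a doubling either way. All 5 members had a smaller fitted difference under TCDD than under corn oil, which is the direction such a choice gives. The interaction was -0.93 for Asic5 (95% interval -1.97 to 0.12; limma adjusted p = 0.401), -0.43 for B3galnt1 (-0.87 to 0.01; limma adjusted p = 0.352) and -0.52 for Ssr2 (-0.92 to -0.13; limma adjusted p = 0.211). The unadjusted interval of Ssr2 alone left out 0, and adjustment over all probe sets did not leave it called. The sign for Mme turned without wild-type corn oil replicate 1, its highest array, to -0.26, and without wild-type TCDD replicate 2, to -0.04.

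The response to TCDD, averaged over both genotypes, is uncorrelated with the genotype differences in this balanced design and so did not enter the choice of members. None of the 5 was called (limma, adjusted p below 0.05; 2.02% of all probe sets were called). Asic5 had the largest average, 0.81 ± 0.24 (SE; 95% interval 0.28 to 1.33; limma adjusted p = 0.122). B3galnt1 stood at -0.24 ± 0.10 (adjusted p = 0.262), Mme at -0.22 ± 0.28 (0.762), Ssr2 at -0.08 ± 0.09 (0.712) and Aadac at -0.04 ± 0.07 (0.839; SE and limma adjusted p). For Aadac the 95% interval ran from -0.20 to 0.12, which keeps its average response within a narrow range, whereas for Mme it ran from -0.85 to 0.41.

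The TCDD differences within 1 genotype subtract corn oil arrays that also entered the choice of members, so they are not independent of it: a member chosen as high in knockout corn oil liver tends to show a lower value with TCDD there, and one chosen as low in wild-type corn oil liver a higher one. Within the wild type, where 0.116% of probe sets were called for TCDD, none of the 5 members was called. Asic5 was 1.27 ± 0.33 higher with TCDD (SE; 2.41-fold; limma adjusted p = 0.354), with no overlap of TCDD and corn oil arrays and a gap of 0.49. Such a separation was seen for 13.7% of all probe sets. Within the knockout, where 5.58% of probe sets were called, again none of the 5 was called. B3galnt1 had a difference of -0.46 ± 0.14 (SE; limma adjusted p = 0.0881) and Ssr2 of -0.34 ± 0.13 (SE; limma adjusted p = 0.143). Neither overlapped between treatments, with gaps of 0.04 and 0.21, as was the case for 23.5% of probe sets. The other members in the knockout stood at -0.11 for Mme, 0.03 for Aadac and 0.34 for Asic5, each with an interval that held 0. Both knockout differences use the corn oil arrays that chose these genes and that stood apart on the principal component. Liver endothelial markers were also lower with TCDD in the knockout, at 9.12 to 9.32 per array against 9.65 to 9.78 with corn oil (5 of 9 called). In the wild type they were at 9.12 to 9.17 against 9.37 to 9.58 (0 called). Neutrophil markers in the knockout were at 6.06 to 6.43 with TCDD against 6.53 to 6.72 (0 of 7 called). Kupffer cell markers there were at 8.77 to 8.87 against 8.97 to 9.31 (1 of 9 called). Bile duct markers there were at 6.47 to 6.66 with TCDD against 6.66 to 6.72, where 0 of 6 differences stood above 0 and 0 were called. Hepatocyte, stellate cell and lymphocyte lists overlapped between treatments in the knockout. The part of any of these cells in the members' differences was not tested.

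**Figure D2:**
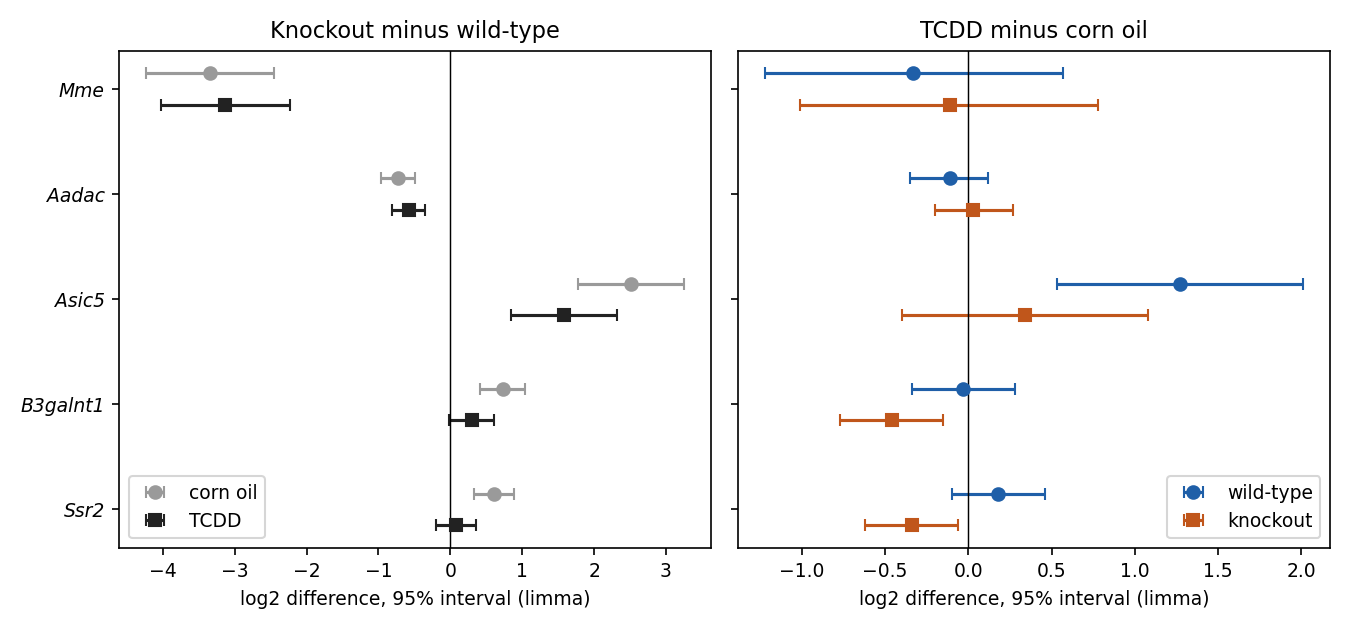
Log2 differences (x axis) of the 5 members with 95% intervals of the fit; left, knockout minus wild type under corn oil (grey) and TCDD (black); right, TCDD minus corn oil in the wild type (blue) and the knockout (orange). The fitted differences between genotypes are smaller under TCDD for all 5 members, and the Asic5 value for TCDD in the wild type, 1.27, is the largest on the right.

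The genes between and around the members were compared to see whether the genotype difference extended along the chromosome. Leaving out the members and Tiparp, 195 measured genes lay within 100 places of Tiparp. None was called for the genotype difference averaged over treatments (limma, adjusted p below 0.05), where 0.491% of all genes were called, and none under TCDD alone. Under corn oil the count was also 0, but this follows from leaving out the members, which were the genes called there. With the members kept, 5 of 200 were called under corn oil (2.5%, against 2.32% of all genes) and 3 of 200 on average (1.5%). The members were chosen by genotype, so neither way of counting shows whether the difference extended along the chromosome. At an unadjusted p below 0.05 the average comparison held 38 of the 195, or 19.5%, against 19.3% of all genes. Their median absolute average difference was 0.095 against 0.088 over all genes. The count of 0 for the average difference depended on 1 library most of all. Without knockout corn oil replicate 3, the one nearest to the wild type on the principal component, 9 of the 195 were called. Without wild-type TCDD replicate 3 there were 2 and without knockout TCDD replicate 1 there was 1. Calls over all 23332 probe sets moved as well, from 96 in the main fit to between 27 and 1006 when 1 array was left out. Nothing particular to the neighbours is read from these counts. The direction of the corn oil and TCDD differences, which share no arrays, matched for 115 of the 195 genes (59.0%), against 53.4% of all genes. Across genes, which are not independent, these differences correlated at Pearson's r 0.397 for the 195 and 0.732 for the 47 within 25 places of Tiparp, against 0.132 over all genes. Without Sucnr1, a gene described next and left out after its values were seen, r was 0.257 and 0.412.

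The immediate neighbours of each member did not share its difference at the level of a call. Next to Mme, the average genotype difference was -0.04 for Gpr149, -0.21 for Dhx36, 0.03 for Plch1 and -0.04 for E130311K13Rik. Next to Asic5, Tdo2, the enzyme that opens the tryptophan ring, had -0.06, the protease gene Ctso had -0.13, and the guanylate cyclase subunit genes Gucy1b1 and Gucy1a1 had 0.02 and 0.04. Next to B3galnt1, Ppm1l was 0.88 ± 0.26 higher under corn oil (SE; limma adjusted p = 0.103) and 0.21 ± 0.26 under TCDD, while Kpna4 and Sptssb had averages of -0.10 and 0.08. Nmd3 had 0.40 ± 0.13 under corn oil and -0.09 ± 0.13 under TCDD. Next to Ssr2 the averages were -0.24 for Ubqln4, 0.01 for Lamtor2, 0.10 for Arhgef2 and -0.15 for Rxfp4. Directly beside Tiparp, the averages were 0.35 for Ssr3, which encodes another TRAP subunit, 0.06 for Kcnab1, 0.15 for Ccnl1 and 0.08 for Veph1. None of these genes was called under TCDD or on average. Under corn oil none could be, since the genes called there within 100 places of Tiparp were the members.

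Sucnr1, which encodes the receptor for succinate and lies beside Aadac, was the 1 gene among the 195 whose 6 knockout and 6 wild-type arrays did not overlap (0.513%). The 195 leave out the members, which were chosen by genotype. With the members kept, the count was 4 of 200 (2.0%, against 1.73% of all genes). The log2 level of Sucnr1 in wild-type liver was 8.38, 7.00 and 6.88 with corn oil and 6.70, 6.63 and 7.23 with TCDD. In knockout liver it was 5.21, 6.33 and 5.73 with corn oil and 6.13, 5.04 and 4.89 with TCDD. The arrays of the genotypes were thus apart under both treatments, with wild-type corn oil replicate 1 well above the rest. The difference was -1.66 ± 0.46 under corn oil (SE; limma adjusted p = 0.0886) and -1.50 ± 0.46 under TCDD (adjusted p = 0.259), and the average of -1.58 ± 0.32 did not pass (adjusted p = 0.0657). The other genes next to Aadac had averages of 0.14 for P2ry12, -0.15 for Aadacl2fm1, a relative of Aadac, and -0.07 for Mbnl1. Of the 73 genes called on average, 5 lay on chromosome 3 (6.85%, against 4.78% of all genes). Within 100 places of Tiparp there were 4 of these, Tiparp and members included. On chromosome 3 as a whole, without the members and Tiparp, 1 of 701 genes was called on average (0.143%). The other chromosomes ranged from 0 to 1.11%, but genes chosen by genotype were left out of chromosome 3 alone. These shares are therefore not alike, and nothing is read from their order.

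**Figure D3:**
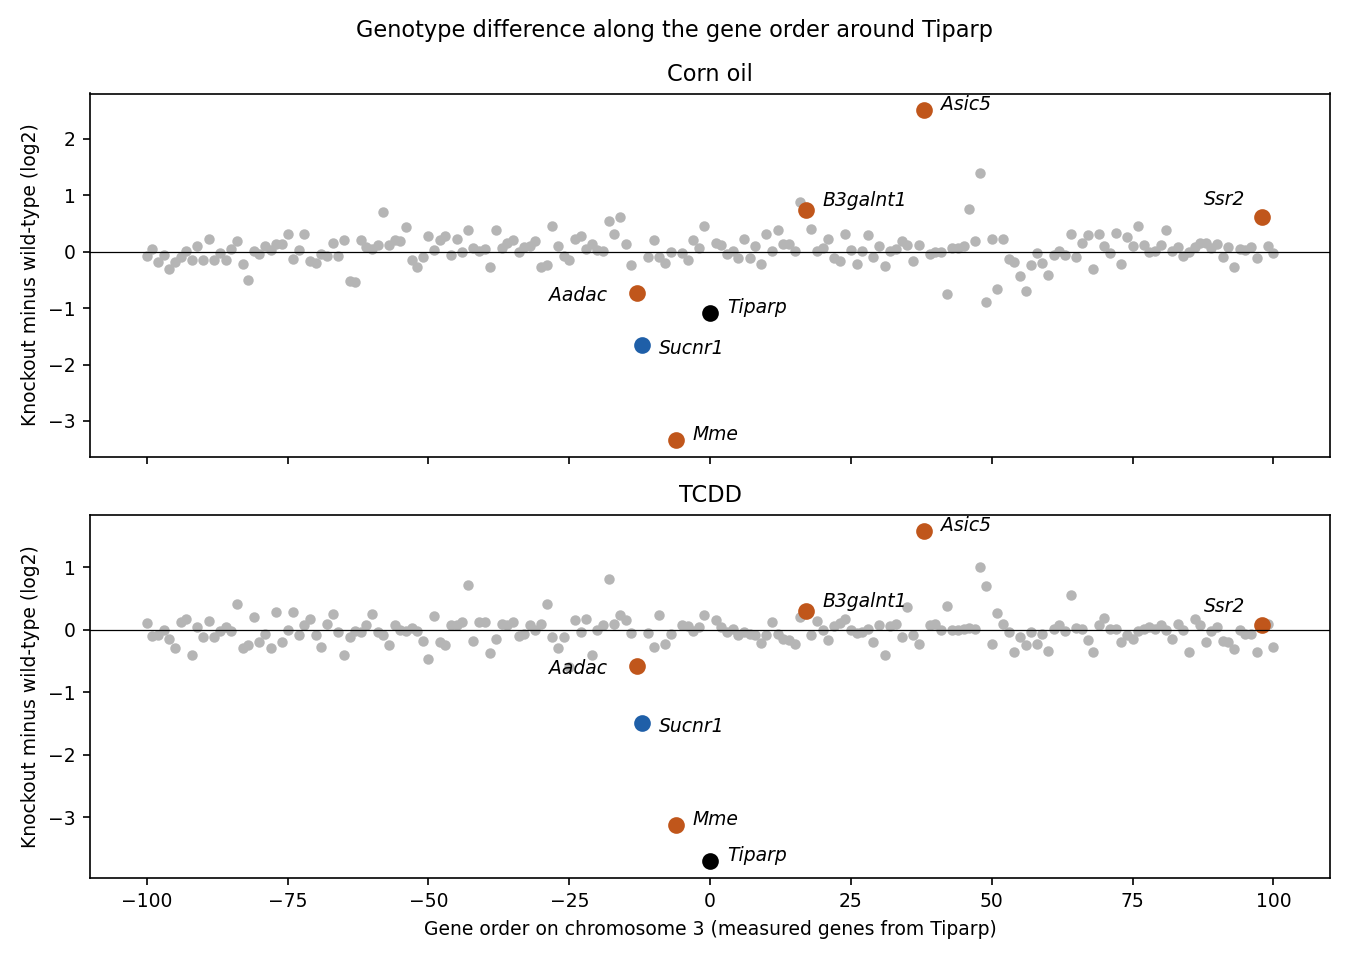
Knockout minus wild-type log2 difference (y axis) of the measured chromosome 3 genes by their place in gene order from Tiparp (x axis, 100 on either side), under corn oil (top) and TCDD (bottom); members are orange, Tiparp black, Sucnr1 blue and others grey. Mme and Asic5 stand far from the line at 0 in both panels, and most of the 195 other genes lie close to it, with a median absolute average difference of 0.095.

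The genes related to each member were taken from lists of its family, complex or pathway, drawn up with earlier results of these data known. Of the neprilysin family of membrane metallopeptidases, 6 relatives of Mme were measured. Ecel1, an endothelin-converting enzyme-like peptidase best known from neurons, was the 1 of the 6 called for genotype under TCDD, as higher in the knockout. Over all genes 0.343% were called there. Its group means were 6.27 and 7.11 in the wild type with corn oil and TCDD, and 6.43 and 10.57 in the knockout. The knockout minus wild-type difference was 0.16 ± 0.30 under corn oil and 3.46 ± 0.30 under TCDD (SE; limma adjusted p = 0.837 and 0.0021). The interaction of 3.30 ± 0.43 was called (limma adjusted p = 0.0292), but in only 5 of 12 fits that each left out 1 array. It was lost without any 1 of the wild-type corn oil arrays, wild-type TCDD replicates 2 or 3, knockout corn oil replicate 2 or knockout TCDD replicate 3. Its rise with TCDD in the knockout, 4.14 ± 0.30 (SE; limma adjusted p = 0.000115), was called in 12 of 12. The TCDD genotype call was lost when only the TCDD arrays were fitted. Of the other relatives, the endothelin-converting enzyme gene Ece1 had an average genotype difference of -0.26, Ece2 0.12, Mmel1 0.05, Phex 0.02 and the blood group gene Kel 0.03, none called. The median over the 6 relatives was 0.04, against 0.01 over all genes.

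Of 12 other listed esterases, 6 were measured (Nceh1, Ces1c, Ces1d, Ces1e, Ces1f and Ces2a) and none was called in any comparison of genotype or treatment. Their median average genotype difference was -0.36, against 0.01 over all genes, with 5 of 6 below 0. Nceh1, a cholesteryl ester hydrolase gene and close relative of Aadac, stood at 0.19 ± 0.31 under corn oil and -1.09 ± 0.31 under TCDD (SE; limma adjusted p = 0.8 and 0.232). Of 7 other acid-sensing and epithelial sodium channel genes, 6 were measured and none was called in any comparison. Their median genotype difference was 0.02 under corn oil and 0.06 under TCDD. Scnn1a, the alpha subunit of the epithelial sodium channel, had an average of -0.12 ± 0.13.

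All 10 other listed genes of globoside and ganglioside synthesis were measured. For genotype, 1 of the 10 was called under TCDD and 1 under corn oil, where 0.343% and 2.32% of all genes were called. The one called under TCDD was St8sia1, which makes the ganglioside GD3. Its group means were 5.92 and 5.85 in the wild type with corn oil and TCDD, and 6.07 and 7.86 in the knockout. The difference under TCDD was 2.02 ± 0.18 (SE; limma adjusted p = 0.0021), against 0.15 ± 0.18 under corn oil. The interaction was 1.86 ± 0.26 (limma adjusted p = 0.0292), called in 5 of 12 fits that left out 1 array and lost without any 1 of the wild-type arrays or knockout corn oil replicate 2. Ugcg, which makes the glucosylceramide from which globoside is built, was 0.76 ± 0.16 higher in the knockout under corn oil (SE; limma adjusted p = 0.047), a call that held in only 1 of 12 such fits, the one without knockout corn oil replicate 3. A4galt, which makes the substrate of the B3galnt1 enzyme, had an average difference of 0.28 ± 0.08 that did not pass (limma adjusted p = 0.134). With TCDD in the knockout 4 of the 10 were called, where 6.48% of all genes were. St8sia1 rose by 1.79 and Ugcg fell by 1.06, and both calls held in 12 of 12 fits. St3gal5 fell by 1.60 and B4galnt1 by 0.58, and both calls were lost without knockout corn oil replicate 2 or without knockout TCDD replicate 3.

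Of the 17 other listed genes of the translocon and TRAP complex, 15 were measured. Under corn oil 12 of the 15 stood above 0 in the knockout, with a median of 0.36 against 0.03 over all genes, and 1 was called. Over all genes 8680 of 14860 stood above 0 and 2.32% were called. The called gene, Srprb, encodes the beta subunit of the signal recognition particle receptor and was 1.03 ± 0.22 higher (SE; limma adjusted p = 0.047), a call that held in 1 of 12 fits that left out an array, again the one without knockout corn oil replicate 3. The other TRAP subunit genes had differences of 0.50 for Ssr1, 0.46 for Ssr3 and 0.41 for Ssr4, of which Ssr4 came nearest to a call (limma adjusted p = 0.0649). Under TCDD the median was 0.01, with 9 of 15 above 0 and none called, where 6342 of 14860 genes stood above 0. With TCDD in the knockout 15 of 15 stood below 0, with a median of -0.23 against -0.04 over all genes and none called, where 6181 of 14860 genes stood above 0. These genes thus showed the pattern of Ssr2 in their medians, and each of these comparisons except that under TCDD uses the knockout corn oil arrays that stood apart.

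**Figure D4:**
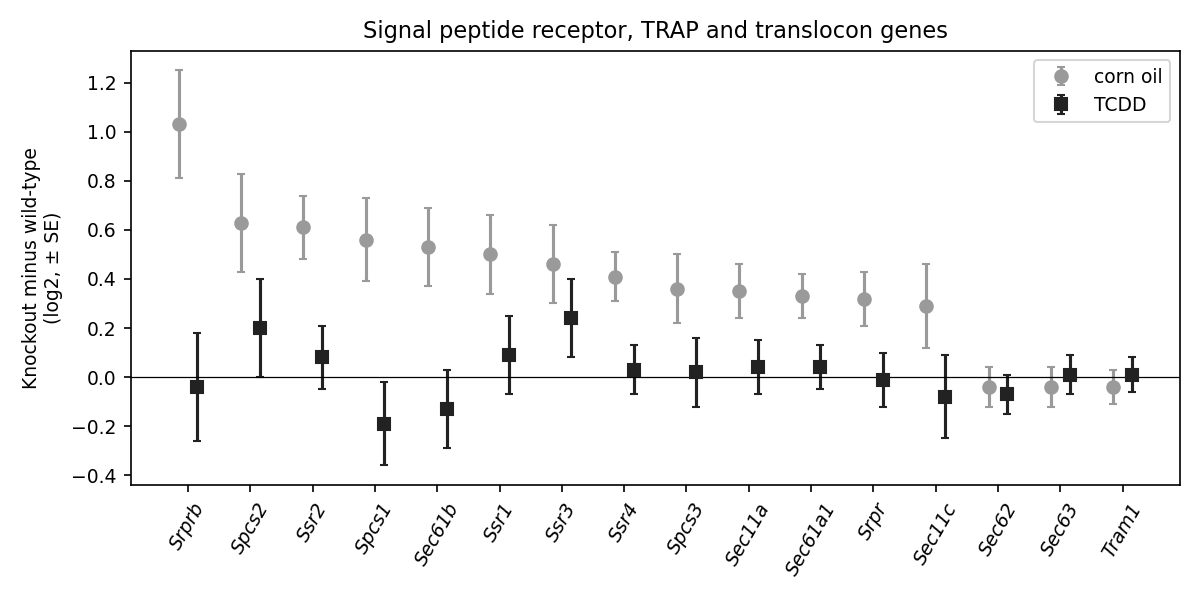
Knockout minus wild-type log2 difference ± SE (y axis) of the 16 measured translocon and TRAP complex genes including Ssr2 (x axis), under corn oil (grey) and TCDD (black). With corn oil 13 of 16 lie above 0 with a median of 0.38, and with TCDD the median is 0.02.

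The genes whose levels were most like each member's over the 12 arrays are given by Pearson's r, as a description without a test. The 12 arrays share the 4 groups, so genes with a like group pattern score high. For Mme they were Rnf214 (r = 0.959), Aadac (0.945), Pip4k2b (0.941), Tfcp2l1 (0.941) and Deaf1 (0.931). For Aadac they were Frg2f1 (r = 0.959), Pip4k2b (0.952), Miga2 (0.947), Mme (0.945) and Tsc1 (0.945), so that Mme and Aadac, both chosen as lower in the knockout, were in each other's list. For Asic5 they were Cit (r = 0.913), Agpat1 (0.911), Acer2 (0.892), Selenok (0.890) and Lrrc8c (0.889). For B3galnt1 they were Lpin1 (r = 0.893), Dse (0.887), Pear1 (0.877), Cd200r1 (0.872) and Btbd11 (0.871), of which Pear1 lies 69 genes after Tiparp. For Ssr2 they were Slc35b1 (r = 0.962), Tmed3 (0.956), Laptm4a (0.953), Ostc (0.952) and Ssr4 (0.950). Of the 25 genes most like each member, 3 for Mme, 1 for Aadac, 0 for Asic5, 1 for B3galnt1 and 3 for Ssr2 lay on chromosome 3, which holds 4.78% of the genes measured.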

How the data were processed

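Liver RNA of 12 mice in 4 groups of 3 was measured on Affymetrix Mouse Exon 1.0 ST arrays. The authors deposited log2 values, 1 per probe set and array, made with RMA in Affymetrix Expression Console for build mm9, per the submitters' processing notes; the sources used here give no versions. RMA subtracts background and forces arrays to 1 distribution, which compresses differences of dim probe sets. The values, with 2 decimals, were used as deposited, with no filter or pseudocount. Of 23332 probe sets, 14996 had 1 gene symbol in GEO's platform annotation, 1019 had several and 7317 none; a RefSeq table (GRCm38.p6) matched 14941 gene IDs and gave names and gene order. Where a gene had several probe sets, the one with the highest mean stood for it. Detection calls, sex and dosing interval were not used.

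In limma 3.58.1 (R 4.3.3) 1 mean per group was fitted over the 12 arrays (residual df 8, prior df 2.19), with 7 contrasts and Benjamini-Hochberg adjustment over all probe sets; an adjusted p below 0.05 is a call, and adjusted p-values are limma's. SE and 95% intervals are those of the fit, and SD is over 3 arrays. The script was tested on simulated data. The members and gene lists were chosen with earlier results of these data known, so differences between genotypes in members carry no test. Named were the members and Tiparp, the 2 nearest measured genes on either side of each, called genes and up to 3 others per family list, and the 5 genes most like each member; other genes named were chosen after their values were seen. Alternatives were a robust, trended empirical Bayes step, fits of the compared groups alone, the replicate block, renormalization, median centring, leaving out probe sets in the lowest 25% or 50% by mean, 1-symbol probe sets alone, array weights, other thresholds and windows, and leaving out each array. Keeping knockout corn oil replicate 3 as the only array of its group was added after seeing the data.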

Additional observations from a re-analysis of the deposited data

Results flagged for a closer look

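The response to TCDD differed between the genotypes for Ecel1, the relative of Mme, by an interaction of 3.30 on the log2 scale, and for St8sia1, which acts in the same glycolipid pathway as B3galnt1, by 1.86 (limma adjusted p = 0.0292 for both). Each call was made in 5 of 12 fits that left out 1 array. Ecel1 had adjusted p-values of up to 0.11 over those fits, and St8sia1 of up to 0.11.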

How the results depend on the processing

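Across the alternatives run, the genotype differences of the members under corn oil kept their direction, between -3.83 and -2.87 for Mme, -0.79 and -0.66 for Aadac, 2.35 and 2.67 for Asic5, 0.64 and 0.85 for B3galnt1 and 0.52 and 0.67 for Ssr2 when 1 array was left out. With knockout corn oil replicate 3 as the only array of its group, an alternative chosen after seeing the data, the B3galnt1 value was 0.91. Values that turned sign were all small and not called, and the cause was not tested. The TCDD effect on Aadac in the knockout, 0.03, was -0.0381 with array weights, -0.0467 with that lone array and -0.075 to 0.09 when 1 array was left out. Leaving out 1 array also gave ranges of -0.14 to 0.04 for the TCDD effect on B3galnt1 in the wild type, -0.82 to 0.15 for that on Mme, -0.467 to 0.0158 for the average TCDD effect on Mme, -0.26 to 0.71 for the interaction of Mme and -0.0533 to 0.152 for the difference of Ssr2 under TCDD. The last turned without wild-type TCDD replicate 1, and the wild-type and average TCDD effects on Mme without wild-type corn oil replicate 1.

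The count of 0 neighbours called for the average genotype difference became 9 with array weights, 3 with the lowest 25% dropped, 3 with the lowest 50% dropped, 3 with 1-symbol probe sets only and 5 at an adjusted p below 0.1; it ran from 0 to 9 when 1 array was left out. Under corn oil it became 15 with array weights and 15 without knockout corn oil replicate 3. The 2 family list genes called under corn oil, leaving out members, became 0 with median centring, 9 with array weights and 9 without that array. When 1 array was left out, calls over all 23332 probe sets ran from 1 to 1624 under corn oil and from 27 to 1006 on average. The counts of neighbours and family list genes are therefore not read as particular to those genes. The TCDD difference of B3galnt1 in the knockout, which subtracts the corn oil arrays that chose this gene, passed the threshold with array weights (-0.56) and with the lowest 50% dropped (-0.46), and nothing is read from this.

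Replicate numbers gave no clear sign of paired samples, but deviations within groups of 3 arrays cannot show that there was no pairing. Over 18 pairs of same-numbered arrays, deviations from group means correlated between -0.208 and 0.114, with 2 above 0.1. With the replicate block, no tested result of a member was called: the adjusted p was 0.127 for the average TCDD effect on Asic5 and 0.272 for the interaction of Ssr2, whose values stayed 0.81 and -0.52. Over all probe sets the block left 0 calls under corn oil, against 457. Other probe sets of a member's symbol could not be tried, since each has 1. With 3 arrays a group, a missed threshold does not show that values are equal.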

Other observations

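Among the 195 neighbours, 3 were called for the average TCDD effect, each in 12 of 12 fits that left out 1 array (2.54% of all genes were called). Tmem131l, 49 genes after Tiparp, rose by 1.40 ± 0.18 (SE; limma adjusted p = 0.00341), with group means of 7.97 and 8.57 in the wild type with corn oil and TCDD, and 7.07 and 9.27 in the knockout. Tm4sf4, a tetraspanin-like membrane protein gene 29 genes before Tiparp, rose by 0.90 ± 0.14 (adjusted p = 0.00882), from 10.44 to 11.01 in the wild type and from 10.21 to 11.43 in the knockout. Slc25a44, a mitochondrial carrier of branched-chain amino acids 92 genes after Tiparp, fell by 0.44 ± 0.06 (adjusted p = 0.00477). None of the 3 was called for genotype under TCDD. Under corn oil none of the 195 was called, since the genes called there were the members, which the 195 leave out.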
